A study of Mus musculus with 2 samples.

Results

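The genes of transforming growth factor beta (TGF-beta) signaling measured here were the ligand Tgfb1, the receptors Tgfbr1 and Tgfbr2, the signal carriers Smad2, Smad3 and Smad4, the inhibitory Smad7, and the corepressors Ski and Skil. They were chosen by symbol as parts of the pathway, and all 9 were found among the 31053 genes of the count tables. The cells were retinal cells positive for CD11b and F4/80, the surface markers of mononuclear phagocytes, sorted from C57BL/6j pups at P17. One group of pups was kept in room air (RA), and the other had oxygen-induced retinopathy (OIR), a model in which pups breathe high oxygen, lose retinal capillaries, and regrow abnormal vessels after they return to room air. Retinas were pooled, and 1 library was made per condition, so that no difference between RA and OIR could be set against the spread between mice, litters or library preparations, and no test between conditions was made. All intervals below are 95% intervals that cover counting error only.

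TGF-beta1 is secreted in a latent form that proteins on the cell surface must hold and release before it can signal. The active ligand brings together the type II receptor TGFBR2 and the type I receptor TGFBR1, which phosphorylates SMAD2 and SMAD3. These join SMAD4 and enter the nucleus to regulate genes, while SMAD7 blocks the receptor, and SKI and SKIL (also called SnoN) hold Smad complexes in a repressed state. In the brain and retina, microglia make TGF-beta1 and need their own TGF-beta receptor to keep the gene expression of resting microglia. Smad7 and Skil are themselves induced by the pathway, and both respond to other signals as well.

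Positions are those of the assembly GRCm38.p6, which is mm10. Tgfb1 lies at chr7:25687002-25705077, Tgfbr1 at chr4:47353222-47414926, Tgfbr2 at chr9:116087695-116175363, Smad3 at chr9:63646766-63757994, Ski at chr4:155154075-155222535 and Skil at chr3:31095058-31122923. RefSeq promoter sequence was at hand for 5 of the 9 genes. The 250 bases before the annotated start are shown for the ligand and for the first start of each receptor, because the ligand and the receptors differed between RA and OIR in opposite or unequal ways in the cell classes below. Capitals mark matches to any of 3 motifs. The core of a Smad-binding element was searched as CAGAC, the box bound by Sp1 family factors, or GC box, as GGGCGG, and the box bound by the TATA-binding protein as TATAA. Each was searched on both strands, and no matches of different motifs overlapped in these sequences.
Tgfb1 (chr7:25686752-25687001, plus strand): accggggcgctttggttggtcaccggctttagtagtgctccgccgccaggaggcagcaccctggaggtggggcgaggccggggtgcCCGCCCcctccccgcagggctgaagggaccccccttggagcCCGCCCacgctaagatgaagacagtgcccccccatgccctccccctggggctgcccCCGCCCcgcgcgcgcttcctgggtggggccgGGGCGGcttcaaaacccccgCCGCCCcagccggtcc
Tgfbr1 (chr4:47352972-47353221, plus strand): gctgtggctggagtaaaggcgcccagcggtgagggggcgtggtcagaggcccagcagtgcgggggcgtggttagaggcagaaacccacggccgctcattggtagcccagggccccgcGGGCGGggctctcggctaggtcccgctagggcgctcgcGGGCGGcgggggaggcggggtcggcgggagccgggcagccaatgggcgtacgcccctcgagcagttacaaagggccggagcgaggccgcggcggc
Tgfbr2 (chr9:116175364-116175613, minus strand): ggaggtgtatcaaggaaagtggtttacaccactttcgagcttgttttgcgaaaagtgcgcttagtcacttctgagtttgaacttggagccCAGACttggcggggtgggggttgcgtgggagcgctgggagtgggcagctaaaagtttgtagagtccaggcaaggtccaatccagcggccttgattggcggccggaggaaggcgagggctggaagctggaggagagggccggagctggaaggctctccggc
The Tgfb1 window held 5 GC boxes and the Tgfbr1 window 2, and neither held CAGAC. The Tgfbr2 window held 1 CAGAC and 0 GC boxes, and none of these 3 windows held TATAA. The window before a second annotated start of Tgfbr1, not shown, held 1 CAGAC, 0 GC boxes and 0 TATAA. Among 32851 promoters of the same length, 42.2% held CAGAC, 32.7% held GGGCGG and 22.8% held TATAA.

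The RA library held 1449 cells and 12810892 UMIs (unique molecular identifiers, each standing for 1 captured transcript), with a median of 8607 UMIs per cell. The OIR library held 1259 cells and 9835402 UMIs, with a median of 5254. The libraries shared 0 cell barcodes. After filtering and clustering, cells were named from marker genes. Microglia numbered 810 in RA and 570 in OIR, macrophage-like cells 69 and 88, monocyte-like cells 52 and 91, and cells of clusters led by cell cycle genes 37 and 170. Rods, present despite the sort, numbered 299 and 228 and served as a comparison from outside the myeloid cells. The genes described here and the other genes of the pathway were kept out of the genes used for clustering. The genes given next were on the marker lists that named the classes. Their levels describe the classes and do not test the names. P2ry12, a purinergic receptor of microglia, was at 1452 CPM (UMIs of the gene per 1000000 UMIs of the group) in RA microglia and 471.6 CPM in RA macrophage-like cells, Mrc1 at 6.1 and 1200 CPM, and Plac8 at 0.4 CPM in RA microglia and 2575 CPM in RA monocyte-like cells. Not every listed gene set the classes apart. Fcrls, a microglial marker, was at 816.8 CPM in RA microglia and 860.8 CPM in RA macrophage-like cells. All 12 microglial markers summed to 18739 and 7757 CPM in these 2 groups.

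Several features moved with condition and touch the results below. Cells with Malat1, a nuclear RNA, at under 0.1% of UMIs made up 59 of 810 RA microglia (7.28%, 5.59% to 9.30%) and 191 of 570 OIR microglia (33.5%, 29.6% to 37.5%). These Malat1-poor cells were shallow, with medians of 3588 and 2459 UMIs against 10328 and 8762 in the other microglia. Summed over all cells of a class, Malat1 was lower in OIR throughout. It was at 18453 CPM in RA and 6610 CPM in OIR microglia, and at 17990 and 6292 CPM in macrophage-like cells. Monocyte-like cells held 18239 and 7984 CPM, dividing cells 11498 and 4076 CPM, and rods 49856 and 27346 CPM. The part of this in the ratios below was not tested. The 20 early response genes that tissue dissociation is known to induce summed to 31558 CPM in RA and 23150 CPM in OIR microglia. Rod markers were at a like low level in microglia of both libraries, 87.2 and 84.4 CPM over 13 genes, none of them at 0. The clusters led by cell cycle genes were mixed. The deeper one (13 RA and 64 OIR cells) held a Mki67 or Top2a UMI in 80.5% of its cells, whereas in the shallower one (24 and 106 cells) 43.8% did and 57.7% held a UMI of the macrophage genes Pf4 or Mrc1. Neutrophil markers summed to 5820 CPM in the 13 RA cells of the deeper cluster and 0 CPM in its OIR cells. Because these clusters were mixed, values for dividing cells are read below with the Malat1-poor cells left out as well. This split did not take out the neutrophil markers. They summed to 4088 CPM in all RA dividing cells and 5563 CPM in those left.

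All 9 genes were detected in every myeloid class of both libraries. Tgfb1, the ligand, was at 371.7 CPM (358.4 to 385.3) in RA microglia and 369.8 CPM (351.4 to 389.0) in OIR microglia. In macrophage-like cells it was at 294.7 CPM (263.1 to 329.1) in RA and 388.6 CPM (356.1 to 423.2) in OIR. Its highest level was in monocyte-like cells of OIR, at 595.3 CPM (545.7 to 648.2), against 384.0 CPM (337.2 to 435.4) in RA. Dividing cells were lowest, at 247.3 CPM (194.2 to 310.5) and 301.1 CPM (272.8 to 331.4). In OIR the interval of monocyte-like cells lay above those of the other classes, while microglia and macrophage-like cells overlapped. In RA, monocyte-like cells and microglia overlapped, as did macrophage-like and dividing cells. The other ligands rested on few UMIs. Tgfb2 had 12 UMIs in RA microglia, 6 of them in the Malat1-poor cells, and 7 in OIR microglia, and Tgfb3 had 3 and 1. In dividing cells, Tgfb2 had 8 UMIs in RA, at 26.7 CPM, and 2 UMIs in OIR, at 1.45 CPM.

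The receptors were highest in RA microglia. Tgfbr1 was at 531.8 CPM (515.9 to 548.0) there and at 316.6 CPM (299.6 to 334.3) in OIR microglia. Its level was 269.5 CPM (239.2 to 302.4) in RA and 150.4 CPM (130.5 to 172.5) in OIR macrophage-like cells, and 210.1 CPM (176.0 to 249.0) and 248.2 CPM (216.6 to 283.2) in monocyte-like cells. Dividing cells held 260.7 CPM (206.1 to 325.4) and 235.2 CPM (210.3 to 262.2). Within each library the microglial interval of Tgfbr1 lay above those of all the other classes. Among the other classes, the RA intervals overlapped, whereas in OIR macrophage-like cells lay below monocyte-like and dividing cells. Tgfbr2 was at 244.7 CPM (234.0 to 255.8) in RA and 172.9 CPM (160.4 to 186.1) in OIR microglia, followed by macrophage-like cells at 198.4 CPM (172.5 to 226.9) and 147.5 CPM (127.7 to 169.4), whose interval overlapped with that of microglia in OIR but not in RA. Monocyte-like cells held 126.4 CPM (100.2 to 157.3) and 122.4 CPM (100.5 to 147.7) of Tgfbr2, and dividing cells 150.4 CPM (109.7 to 201.3) and 117.2 CPM (99.9 to 136.7). Macrophage-like cells overlapped with both of these classes in OIR, and with dividing cells only in RA.

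The signal-carrying Smads rested on few UMIs outside microglia. Smad2 (chr18:76241090-76311748), Smad4 (chr18:73634790-73703791) and the inhibitory Smad7 (chr18:75367365-75395935) lie on the same chromosome. Smad2 lay between 22.1 and 40.5 CPM in the myeloid classes, with 10 to 290 UMIs behind each value, and its intervals overlapped for every pair of classes within a library. Smad3 was highest in monocyte-like cells, at 36.3 CPM (23.0 to 54.5) in RA and 37.1 CPM (25.5 to 52.1) in OIR, against 23.4 CPM (20.2 to 27.0) and 18.6 CPM (14.7 to 23.3) in microglia. Only the OIR pair of these intervals did not overlap. Smad4, the partner shared with bone morphogenetic protein signaling, lay between 35.5 and 69.5 CPM. Monocyte-like cells held 69.5 CPM (50.5 to 93.3) of Smad4 in RA and 57.3 CPM (42.7 to 75.3) in OIR, and RA microglia 51.2 CPM (46.3 to 56.4).

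Smad7, the inhibitory Smad, was at 190.8 CPM (181.4 to 200.7) in RA and 177.5 CPM (164.8 to 191.0) in OIR microglia, above every other class. Macrophage-like cells held 65.5 CPM (51.1 to 82.8) and 51.6 CPM (40.2 to 65.2), monocyte-like cells 61.6 CPM (43.8 to 84.2) and 87.6 CPM (69.3 to 109.3), and dividing cells 96.9 CPM (64.9 to 139.2) and 86.8 CPM (72.0 to 103.8). Ski was at 233.0 CPM (222.5 to 243.8) in RA microglia and 171.9 CPM (159.4 to 185.1) in OIR microglia, and between 113.5 and 154.4 CPM in the other myeloid groups. Skil was at 929.5 CPM (908.5 to 950.8) in RA and 594.2 CPM (570.8 to 618.3) in OIR microglia. In macrophage-like cells Skil was at 647.5 CPM (600.1 to 697.5) and 356.1 CPM (325.1 to 389.3), in monocyte-like cells at 437.7 CPM (387.6 to 492.4) and 476.3 CPM (432.0 to 523.8), and in dividing cells at 501.4 CPM (424.4 to 588.3) and 349.5 CPM (319.1 to 382.2).

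**Figure D1:**
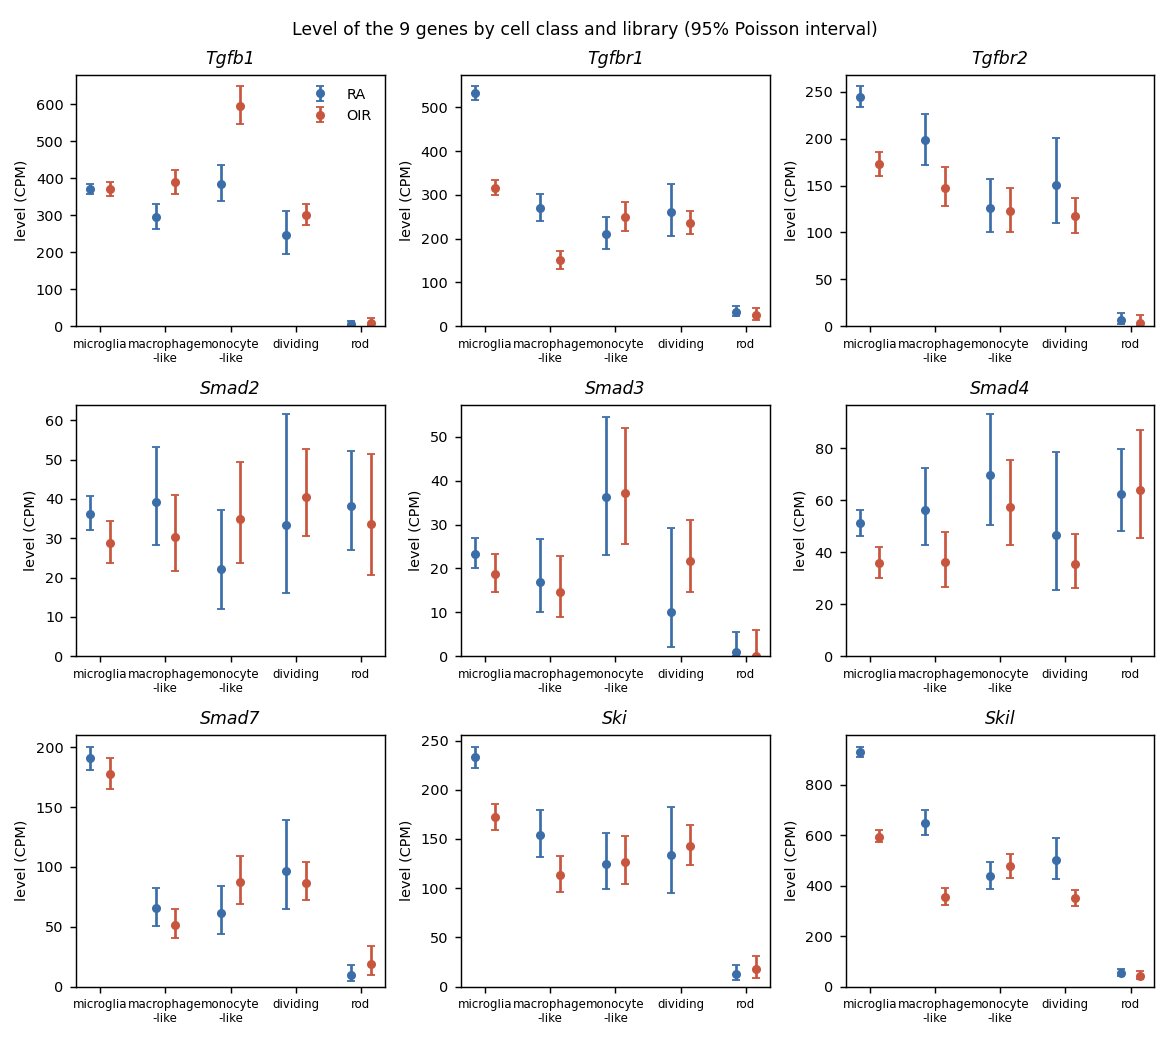
Level of each gene in CPM (y axis, starting at 0 and scaled per panel) in 5 cell classes (x axis), with RA in blue and OIR in red, and bars for the exact 95% Poisson interval of the summed UMIs. Tgfbr1 and Smad7 were highest in microglia of both libraries, Tgfb1 was highest in OIR monocyte-like cells, and the rod levels of Smad2 and Smad4 lay within or near the range of the myeloid classes.

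Levels in rods are given for comparison. Tgfb1 was at 5.87 CPM in RA and 9.59 CPM in OIR rods, Tgfbr2 at 6.84 and 3.20 CPM, Smad7 at 9.78 and 19.2 CPM, and Ski at 12.7 and 17.6 CPM. Tgfbr1 was at 33.2 and 25.6 CPM and Skil at 53.8 and 43.1 CPM in rods, each far below its own myeloid levels. Smad2 at 38.1 and 33.6 CPM and Smad4 at 62.6 and 63.9 CPM were as high in rods as in myeloid cells. For Smad3, rods held 1 UMI in RA and 0 in OIR, for which the upper 95% limits were 5.45 and 5.90 CPM.

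The classes were next compared within each library, relative to microglia, counting a gene as higher or lower when its summed level differed by at least 1.5-fold. The ratios are log2 values, and genes with at least 20 UMIs over both groups were compared. In RA macrophage-like cells, 3 of the 9 genes were lower and 0 higher, against 18.7% of 10123 genes lower and 14.8% higher. They were Smad7 (log2 ratio -1.54, -1.91 to -1.20), Tgfbr1 (-0.98, -1.16 to -0.81) and Ski (-0.59, -0.83 to -0.36). In OIR, 4 were lower and 0 higher, against a background of 12.3% lower and 19.4% higher. Smad7 (-1.78, -2.16 to -1.43) and Tgfbr1 (-1.07, -1.29 to -0.86) again differed most, followed by Skil (-0.74) and Ski (-0.60). Smad7 and Tgfbr1 thus stood lower in macrophage-like cells than in microglia in both libraries, and under each of the 15 alternatives their ratios kept this sign.

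Monocyte-like cells differed from microglia in both directions. In RA, 6 genes were lower and 1 higher, against 26.8% and 23.9% of all genes. The lower genes were Smad7 (-1.63, -2.13 to -1.17), Tgfbr1 (-1.34, -1.60 to -1.09), Skil (-1.09, -1.26 to -0.91), Tgfbr2 (-0.95, -1.29 to -0.63), Ski (-0.90, -1.24 to -0.58) and Smad2 (-0.71), whose interval of -1.60 to 0.06 spanned 0. The higher one was Smad3 (0.64, -0.06 to 1.26), which rested on 23 UMIs. In OIR, only Smad7 (-1.02, -1.38 to -0.68) was lower, against 18.1% of all genes, and 3 genes were higher, against 24%. These were Smad3 (0.99, 0.36 to 1.60), Tgfb1 (0.69, 0.54 to 0.83) and Smad4 (0.68, 0.19 to 1.15). Tgfbr1 in OIR monocyte-like cells was -0.35 (-0.56 to -0.14) relative to OIR microglia, within the 1.5-fold limit. The RA and OIR ratios of Tgfbr1 were measured against microglia whose own level differed between the libraries.

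The mixed class of dividing cells was lower than microglia for most genes in RA, where 7 of 9 were lower and 0 higher against 19.5% and 25.4% of all genes. In OIR, 2 were lower, Smad7 (-1.03, -1.32 to -0.75) and Skil (-0.77, -0.91 to -0.62), and 0 were higher, against 10.5% and 21.7%. Without Malat1-poor cells, which left 17 RA and 72 OIR dividing cells, 2 genes remained below the limit in RA, Tgfbr1 (-0.79, -1.16 to -0.45) and Smad3 (-1.38, with 2 UMIs). The share of all genes is not given for this smaller set of cells, so these 2 cannot be set against the 19.5% above. In OIR the values were then -0.95 (-1.24 to -0.66) for Smad7, -0.67 (-0.81 to -0.53) for Skil and -0.35 (-0.54 to -0.17) for Tgfbr1. Smad2 (0.32), Smad3 (0.28) and Smad4 (0.10) of OIR dividing cells had intervals that spanned 0.

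Between conditions, the summed level of the ligand over all microglia differed by no more than counting error. That of its type I receptor was lower in OIR. The ratio of OIR to RA was -0.01 (-0.10 to 0.08) for Tgfb1 and -0.75 (-0.84 to -0.66) for Tgfbr1, from 1508 against 2972 and 1291 against 4252 UMIs. Skil, the corepressor, was also lower by more than 1.5-fold, at -0.65 (-0.71 to -0.58). Thus 2 of the 9 genes were lower and 0 higher, against 18.6% of 10442 genes lower and 17.4% higher, so the count is near that of genes at large. Skil was within the limit with a Ptprc limit of 25%, with all anchor genes and without Malat1-poor cells. Tgfbr2 (-0.50, -0.63 to -0.38), Smad4 (-0.51, -0.80 to -0.24), Ski (-0.44, -0.57 to -0.31) and Smad2 (-0.34, -0.66 to -0.02) were lower within the limit. Smad3 (-0.33, -0.73 to 0.06) and Smad7 (-0.10, -0.23 to 0.02) had intervals that reached 0. The median of the 9 ratios was -0.44, and that of all genes compared was -0.02. Fewer transcripts per cell and fewer cells with a transcript both lower a summed level, and the shares of cells are given below.

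**Figure D2:**
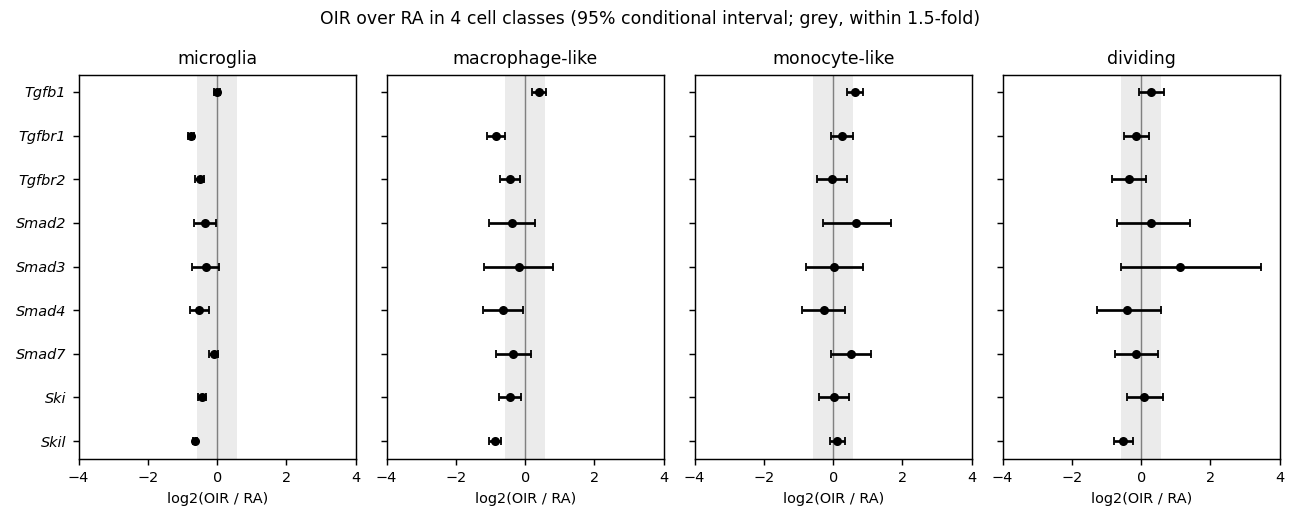
Log2 ratio of OIR to RA (x axis) for each gene (y axis) in 4 cell classes, with bars for the exact conditional 95% interval and a grey band for differences within 1.5-fold. Tgfbr1 and Skil lay left of the band in microglia and macrophage-like cells, and Tgfb1 lay right of 0 in macrophage-like and monocyte-like cells.

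Clusters m0 and m1 held most of the microglia in both libraries, but the shares of the clusters differed, so the ratios were also taken within clusters. Of the RA microglia, 319 lay in cluster m0 (led by Rrad and Ddit3). Cluster m1 held 269, led by Gm26522 and Tnfaip2, with Egr3 and Tnf among its top genes. Cluster m2 held 136, with Hk2 and ribosomal protein genes among its top genes. Cluster m3 held 66 (led by Cryba4 and Crybb1), with Malat1 at 3067 CPM in RA and 187.5 CPM in OIR. Cluster m7 held 8 (led by Spp1 and Mmp12), with Malat1 at 51.4 and 332.7 CPM. Microglial markers summed to only 8075 CPM in its RA cells and 7694 CPM in its OIR cells. They summed to 18495 and 20600 CPM in m0, and to 7757 and 7390 CPM in macrophage-like cells. Macrophage markers summed to 2392 CPM in the RA cells of m7 and 288.4 CPM in its OIR cells. The part of m7 in the ratios over all microglia was not tested. Cluster m10 held 12, with Mmp12 and Lpl among its top genes. The OIR microglia numbered 147, 178, 38, 107, 75 and 25 in the same clusters. Tgfbr1 had a ratio of -0.63 (-0.78 to -0.47) in m0, -0.62 (-0.75 to -0.49) in m1 and -0.59 (-0.96 to -0.23) in m2. In m10 it was -0.40 (-0.92 to 0.13). In m3 it was above 0, at 0.14 (-0.47 to 0.76), and in m7 it was -0.63 (-2.90 to 2.62), from 2 RA and 9 OIR UMIs. Skil had -0.43 (-0.54 to -0.33) in m0, -0.50 (-0.60 to -0.40) in m1, -0.85 (-1.20 to -0.52) in m2 and -1.26 (-1.60 to -0.91) in m10. In m3 (0.34, -0.48 to 1.19) and m7 (1.11, from 1 RA and 15 OIR UMIs) its ratio was above 0 with intervals that spanned 0. Tgfb1 was at 0.16 (0.01 to 0.30) in m0, had intervals that spanned 0 in m1 and m2, and was at 0.66 (0.09 to 1.25) in m3 and -0.67 (-1.17 to -0.17) in m10, where 12 RA cells stood against 25. In m7 Tgfb1 was at 1.09 (-0.20 to 2.75), from 5 RA and 74 OIR UMIs.

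Leaving out the Malat1-poor cells left 751 RA and 379 OIR microglia, in which Tgfbr1 was at 542.9 and 349.1 CPM, a ratio of -0.64 (-0.73 to -0.54). This was the only one of the 9 genes past 1.5-fold among these cells. No share of all genes is given for these cells. Among all microglia, 18.6% of genes were lower and 17.4% higher. Skil then had -0.48 (-0.55 to -0.41), Tgfbr2 -0.37 (-0.50 to -0.24), Ski -0.30 (-0.43 to -0.17) and Smad4 -0.42 (-0.71 to -0.13). The intervals of Tgfb1 (0.04, -0.06 to 0.13) and Smad7 (0.07, -0.06 to 0.20) spanned 0. The early response genes still differed between these cells, at 32414 CPM in RA and 26307 CPM in OIR, and Malat1 was at 19025 and 7835 CPM. The part of either in the ratios was not tested. Among the 59 RA and 191 OIR Malat1-poor microglia, Tgfb1 was higher in OIR, at 0.63 (0.14 to 1.14), from 43 and 176 UMIs. Tgfbr1 was at -0.29 (-0.83 to 0.27) and Tgfbr2 at -0.75 (-1.47 to -0.01) in the same cells. The ratio of Tgfb1 over all microglia thus sums parts that differed.

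**Figure D3:**
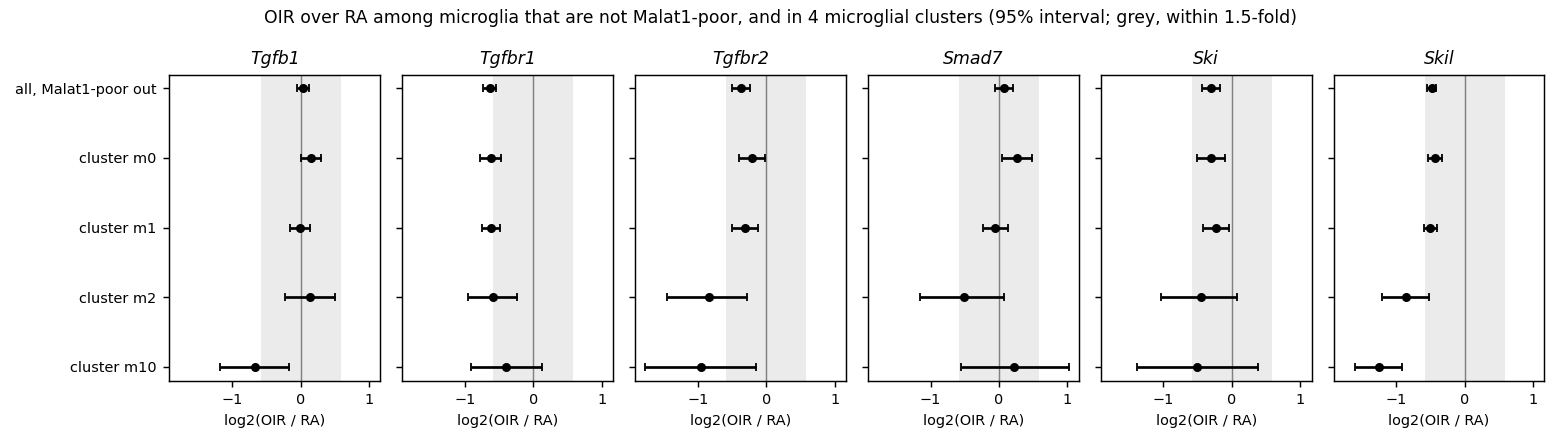
Log2 ratio of OIR to RA (x axis) for 6 genes among the microglia left after the Malat1-poor cells were taken out and within 4 clusters (y axis), with exact conditional 95% intervals and a grey band for 1.5-fold. Tgfbr1 lay below 0 in every row shown, its interval reaching 0 only in m10, while Tgfb1 lay near 0 in the rows shown except in m10. Clusters m3 and m7, where some ratios differed from these, are not shown.

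Macrophage-like cells differed between conditions in the ligand as well as the receptor. Tgfb1 was higher in OIR by 0.40 (0.19 to 0.60), within the limit, while Tgfbr1 (-0.84, -1.11 to -0.58), Skil (-0.86, -1.03 to -0.69) and Smad4 (-0.64, -1.21 to -0.07) were lower. These 3 of 9 genes stood against 13.8% of all genes lower, and 0 of 9 stood against 26.9% higher. Tgfbr2 (-0.43, -0.71 to -0.14) and Ski (-0.44, -0.77 to -0.12) were lower within the limit. The median of all genes was 0.16 here. Relative to it, Tgfb1 was at 0.24 and Skil at -1.03, and 5 genes were lower by 1.5-fold. The share of all genes after this centring is not given, so the 5 cannot be set against the 13.8% above. With a mean over cells Tgfbr1 (-0.57) and Smad4 were within the limit, and with thinned cells Smad4 was. The early response genes summed to 35707 CPM in RA and 24416 CPM in OIR macrophage-like cells, with 10 of the 20 lower and 1 higher by 1.5-fold. Monocyte markers summed to 38.4 and 72.3 CPM in these cells, cell cycle markers to 145.0 and 515.4 CPM, and macrophage markers to 7598 and 7217 CPM. Malat1 was at 17990 CPM in RA and 6292 CPM in OIR macrophage-like cells. The part of such differences in the ratios was not tested.

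In monocyte-like cells the ligand Tgfb1 was higher in OIR by 0.63 (0.41 to 0.86), from 384.0 to 595.3 CPM, and between 0.52 and 0.79 under the alternatives. It was within the 1.5-fold limit after centring on the median of all genes (0.52), without ribosomal protein and mitochondrial genes in the total, and with a mean over cells, as was Smad2. Smad2 was higher by 0.65, but with 31 against 14 UMIs and an interval of -0.30 to 1.68. These 2 of 9 genes stood against 21.3% of all genes higher, and 0 of 9 against 14.3% lower. Tgfbr1 (0.24, -0.08 to 0.56), Tgfbr2 (-0.05, -0.48 to 0.39), Smad7 (0.51, -0.06 to 1.10) and Skil (0.12, -0.10 to 0.35) had intervals that spanned 0. The classical monocyte gene Ly6c2 was at 219.6 CPM in RA and, from 89 UMIs, lower in OIR, Ccr2 at 244.9 and 380.8 CPM, and neutrophil markers at 1702 and 312.3 CPM, so the 2 libraries' monocyte-like cells were not of the same makeup. The part of this in the Tgfb1 ratio was not tested.

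In dividing cells 1 gene was higher and 0 lower, against 28.4% and 15.5% of all genes. It was Smad3 (1.11, -0.57 to 3.47), with 3 UMIs in RA. Skil was lower by -0.52 (-0.79 to -0.25), and the other 7 genes had intervals that spanned 0. Without the Malat1-poor cells, Skil was at -0.63 (-0.90 to -0.36), Tgfbr2 at -0.62 (-1.11 to -0.10), Tgfbr1 at -0.20 (-0.58 to 0.20) and Tgfb1 at 0.14 (-0.25 to 0.55), from 17 RA cells. Neutrophil markers summed to 5563 CPM in these RA cells and 0 CPM in the OIR cells. Their part in these ratios was not tested.

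The shares of cells with a UMI followed depth as well as level. Tgfbr1 was found in 92.1% of RA microglia (90.0% to 93.9%) and 67.2% of OIR microglia (63.2% to 71.0%), and Tgfb1 in 88.6% and 76.3%. After every cell was thinned to 2000 UMIs, with 778 RA and 489 OIR microglia deep enough, Tgfbr1 was found in 63.4% (59.9% to 66.8%) and 44.6% (40.1% to 49.1%), and Tgfb1 in 52.7% (49.1% to 56.3%) and 50.5% (46.0% to 55.0%). At equal depth the intervals, which cover counting error only, did not overlap for the receptor Tgfbr1 and overlapped for the ligand. Of the thinned microglia, 45 in RA and 127 in OIR were Malat1-poor, and their part in these shares was not tested. Thinned shares of Tgfbr2 were 39.2% and 25.6%, of Skil 78.3% and 57.5%, of Ski 38.0% and 26.6%, and of Smad7 30.2% and 24.7%. In thinned rods (126 RA and 74 OIR cells, with medians of 1765 and 1260 UMIs over all rods before thinning), Tgfb1 was found in 0.794% and 1.35%, Tgfbr1 in 3.17% and 4.05%, and Tgfbr2 in 0 cells of either library. Smad2, found in 6.43% and 4.91% of thinned microglia and 10.3% and 10.8% of thinned rods, and Smad4, in 6.94% and 6.34% against 9.52% and 12.2%, were found in rods at shares no lower than in microglia.

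Ligand and both receptors were often found in the same microglial cell. Before thinning, 619 of 810 RA microglia (76.4%) held UMIs of Tgfb1, Tgfbr1 and Tgfbr2 together, as did 245 of 570 OIR microglia (43.0%). After thinning these shares were 13.8% and 7.57%, and those with both receptors were 26.2% and 13.5%. In rods, 1 cell of 299 in RA and 1 of 228 in OIR held all 3 before thinning. Among the microglia that were not Malat1-poor, thinned shares with both receptors were 27.3% in RA and 17.4% in OIR.

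Malat1-poor microglia held lower summed levels of most of the genes. The split is a range of a per-cell value, not a cell type, and 6 RA and 19 OIR microglia lay near the limit, from 0.05% to 2 times the limit. In RA all 9 genes were lower than in the other microglia, with an interval that spanned 0 for Smad3, against 43.9% of all genes lower and 18.1% higher. In OIR 8 were lower, with an interval that spanned 0 for Smad2, against 42.1% lower and 12.1% higher. Smad7 was at 8.27 and 196.5 CPM in RA (log2 ratio -4.57, -7.62 to -2.71, with 2 UMIs in the Malat1-poor cells) and at 23.4 and 206.2 CPM in OIR (-3.14, -3.98 to -2.41). Skil was at 66.2 and 956.4 CPM in RA (-3.85, -4.66 to -3.15) and 106.2 and 685.1 CPM in OIR (-2.69, -3.06 to -2.34). Tgfbr1 had -1.64 (-2.12 to -1.21) and -1.30 (-1.62 to -0.99), and Tgfbr2 -1.10 (-1.70 to -0.57) and -1.48 (-1.96 to -1.04). Tgfb1 had -1.09 (-1.56 to -0.65) in RA and -0.49 (-0.73 to -0.27) in OIR, the ratio closest to 0 in OIR but not in RA, where Smad3 was at -0.94 from 3 UMIs. The OIR values rest on which cells counted as myeloid. With a Ptprc limit of 25% they were -0.01 for Tgfbr1, -0.08 for Ski, -0.20 for Smad3, -0.81 for Tgfbr2, -0.90 for Smad7, -1.33 for Skil and 0.12 for Tgfb1. No RA ratios are given at that limit, so whether the RA values rest on it too is not known. Smad2 had 0 UMIs in the RA Malat1-poor cells. With a floor of 3 UMIs in place of 0 its ratio was -1.59, and the upper end of its interval was -1.28.

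The rest of the transcriptome of these cells differed too. The median of all genes was -0.40 in RA and -0.36 in OIR, and of the 20 early response genes all 20 were lower in RA and 19 in OIR, with medians of -3.17 and -2.18. Lens markers summed to 6814 and 1039 CPM in the Malat1-poor microglia and to 130.5 and 23.9 CPM in the others. Red cell markers summed to 479.9 and 439.0 CPM against 7.22 and 8.15 CPM. Among Malat1-poor microglia, thinned shares were 33.3% in RA and 44.1% in OIR for Tgfb1, and 33.3% and 22.8% for Tgfbr1. The part of depth, lost nuclear RNA and early response in these ratios was not tested.

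**Figure D4:**
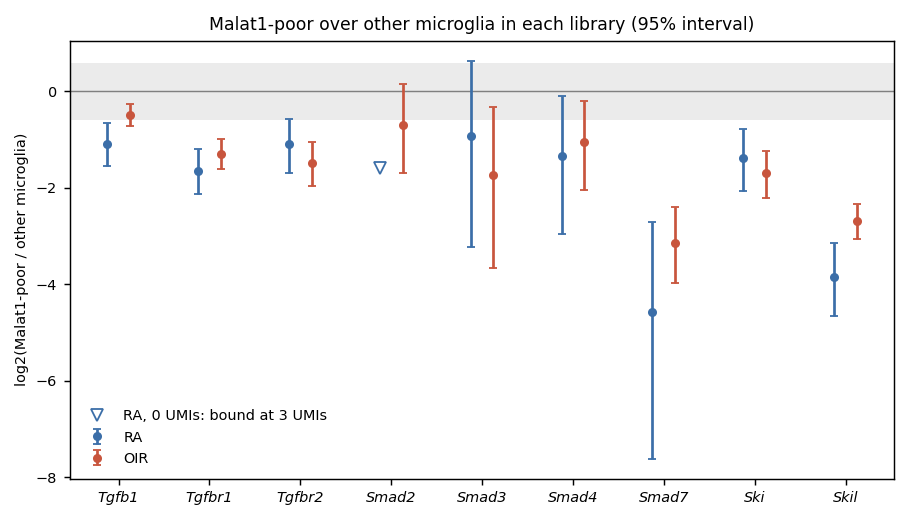
Log2 ratio of Malat1-poor to other microglia (y axis) for each gene (x axis), RA in blue and OIR in red, with exact conditional 95% intervals, a grey band for 1.5-fold and an open triangle where the Malat1-poor cells held 0 UMIs. Smad7 and Skil lay lowest in both libraries, and Tgfb1 in OIR was the only value inside the band.

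The other genes of the pathway were described by lists. These lists, here and below, were chosen with earlier results of these data known, so their counts are descriptions and not tests. Among genes that hold, release or accompany the ligand, 0 of 7 compared were lower in OIR microglia and 2 were higher, with a median of 0.20. Nrros, which anchors latent TGF-beta1 on microglia, was at 90.8 CPM in RA and 119.9 CPM in OIR (0.40, 0.23 to 0.57). It was at 158.1 and 225.6 CPM in macrophage-like cells (0.51, 0.24 to 0.79), and higher there than in microglia in both libraries, by 0.80 and 0.91. The higher genes were Thbs1 (0.97, 0.47 to 1.47), a matrix protein that can activate latent TGF-beta, and Mmp14 (0.59, 0.20 to 0.99), a membrane protease. Thbs1 rested on 69 UMIs in each library, at 8.63 CPM in RA and 16.9 CPM in OIR. Monocyte markers summed to 7.88 and 16.9 CPM in the same microglia, and their part in the Thbs1 ratio was not tested. Of 8 co-receptors and other receptors of the family, 3 were lower and 1 higher. Eng, the co-receptor endoglin, was at 71.9 CPM in RA and 30.7 CPM in OIR (-1.23, -1.52 to -0.95), the activin receptor Acvr2a was lower by -2.05 (-3.43 to -0.92), and Acvrl1, the type I receptor ALK1, was higher, at 14.5 and 42.2 CPM (1.54, 1.19 to 1.89).

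Downstream in microglia, 5 of 16 other Smads, adaptors and partners were lower and 0 higher, with a median of -0.42. The largest ratios were those of Tab2 (-0.81), an adaptor of the kinase TAK1, and of the transcription factors Foxo3 (-0.75) and Sp1 (-0.68). Of 16 inhibitors and ubiquitin ligases, 4 were lower and 1 higher, with a median of -0.20. The inhibitory Smad6 was lower by -1.23 (-2.38 to -0.22), the corepressor Tgif2 by -1.06 (-1.36 to -0.76), and Rnf111, the ligase that degrades Ski and Skil, by -1.05 (-1.34 to -0.77). All of these counts stand beside 18.6% and 17.4% of all genes.

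Genes known to be induced by TGF-beta and microglial genes known to depend on it were compared next. Of 11 induced genes compared, 0 were lower and 5 higher in OIR microglia, beside 18.6% and 17.4% of all genes, with a median of 0.30. The transcription factor Bhlhe40 was at 0.875 and 7.36 CPM (3.07, 1.85 to 4.50), and the angiogenic factor Vegfa was at 1.63 and 13.2 CPM (3.03, 2.13 to 4.02). In RA, Bhlhe40 rested on 7 UMIs and Vegfa on 13. Both genes also respond to low oxygen, as is known from other tissues, and the part of this in their ratios was not tested. Of 15 genes that microglia are known to express in dependence on TGF-beta, 4 were lower and 1 higher, beside the same shares of all genes, with a median of -0.44. The fractalkine receptor Cx3cr1 was at 2015 and 759.5 CPM (-1.41, -1.46 to -1.35), the lectin Siglech at 645.6 and 346.5 CPM (-0.90, -0.98 to -0.81), and Fcrls at 816.8 and 1604 CPM (0.97, 0.92 to 1.02). Of these 15 genes, 12 also served as the microglial markers that named the class. In the early response list, 5 of 20 were lower and 0 higher, again beside 18.6% and 17.4%, with a median of -0.32, led by Egr1 and Btg2 (both -1.06) and Egr3 (-0.98).

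**Figure D5:**
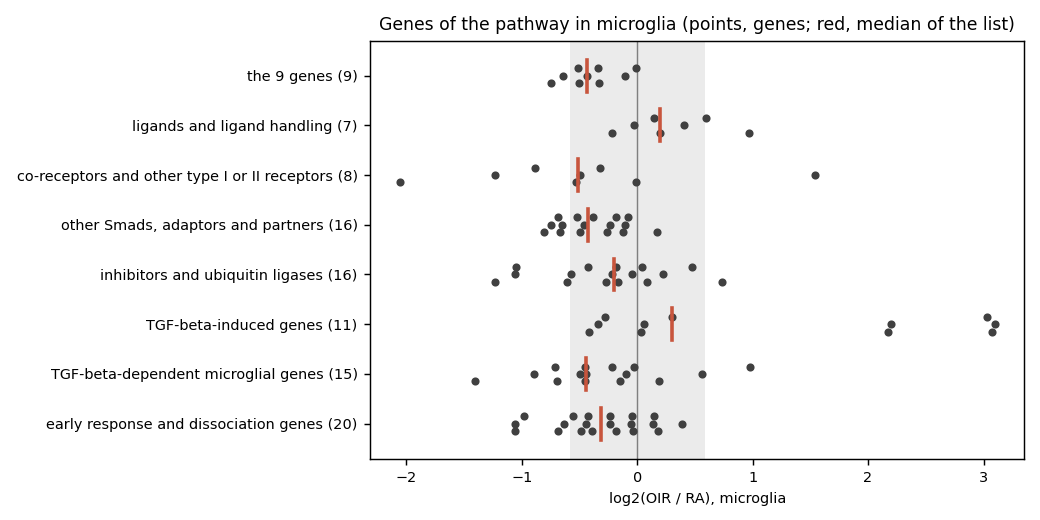
Log2 ratio of OIR to RA in microglia (x axis) for the 9 genes and for each list (y axis, number compared in parentheses), with a point per gene, a red bar at the median of the list and a grey band for 1.5-fold. The induced genes hold 5 points right of the band. The lists of ligand handling and of induced genes have medians above 0, and the 9 genes and all the other lists have medians below 0.

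Of the lists in macrophage-like cells, the induced genes had 3 of 9 higher and 0 lower, with a median of -0.19, and the TGF-beta-dependent microglial genes had 4 of 15 lower and 1 higher, beside 13.8% of all genes lower and 26.9% higher. In monocyte-like cells the latter list had 0 lower and 5 of 15 higher, beside 14.3% lower and 21.3% higher. The microglial markers, which share 12 of these 15 genes, summed to 3996 CPM in RA and 6367 CPM in OIR monocyte-like cells, and their part in this count was not tested. Thbs1 was higher in OIR monocyte-like cells (1.07, 0.89 to 1.25), at 532.5 and 1118 CPM.

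The genes whose levels followed those of the ligand and receptors most closely were named over 10 groups, the 4 myeloid classes and the Malat1-poor microglia of each library. These groups share libraries, and the Malat1-poor cells are also part of the microglia, so the correlations are descriptions. Among 4705 genes, those most like Tgfb1 included Gnai3 (Pearson's r 0.945), A630001G21Rik (0.942), Rap2a (0.930) and Gsdmd (0.930). The most like Tgfbr1 were Slc29a3 (0.949), Fbrsl1 (0.944), Nav3 (0.930), Sall3 (0.929) and Pdgfb (0.922), and the most like Tgfbr2 were Acp2 (0.975), Gcc2 (0.964), Zfhx3 (0.960), Abca9 (0.946) and Mef2c (0.941). Smad2 and Smad3 were too low in every group to be among the genes compared, so they could not be listed. None of the rest of the 9 genes was among the 5 most like the ligand or either receptor.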

How the data were processed

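The authors deposited counts of UMIs (raw, gene by cell, 1 matrix per condition), made with Cell Ranger 3.1.0 (file header) from 10x Chromium 3′ libraries; the submitters' processing notes name mm10, Cell Ranger and Seurat 4.0. Genes and lists were chosen with earlier results of these data known. Cells above 20% mitochondrial UMIs (125 RA, 55 OIR) and the 2% with most genes (29, 25) were removed, which kept 1295 and 1179. Seurat 5.3.0 in R 4.3.3 integrated the libraries (canonical correlation, 3000 anchor genes less the members and pathway genes, 30 dimensions) and clustered them at resolution 0.5. Clusters with a Ptprc UMI in at least 10% of cells (1930 cells) were clustered again at 0.6 into 11 clusters. Scrublet called 4 and 2 doublets, 0.276% and 0.159%, too few for the caller to have worked, so these cells were kept and left out only as an alternative. Clusters were named from fixed marker lists, with level limits chosen once the clusters were known; 17 RA and 26 OIR cells led by pericyte genes and 11 and 6 red cells were left out. Counts were summed per group in pandas 2.3.3 (numpy 2.4.6, Python 3.11.15), and intervals were taken from scipy 1.17.1. Intervals are exact Poisson (levels), binomial (shares) and conditional (ratios). The Poisson and conditional intervals were tested on simulated Poisson counts, and the binomial ones were not. Named genes were the 9 members, for each list the 3 with the largest ratio in microglia, Nrros, Tgfb2 and Tgfb3, the 5 of most like pattern (log2 of CPM plus 5, at least 50 CPM in a group), and markers; some genes that this rule names are not reported here. Ligand, receptor and Smad levels come from 3′ UMIs, so levels of different genes were not compared. The alternatives covered the Ptprc limit, integration, anchor genes, resolution, shallow cells, doublets, mitochondrial limit, scaling, weight of cells, Malat1-poor cells, thinning, low counts and the fold limit.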

Additional observations from a re-analysis of the deposited data

How the results depend on the processing

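No paired analysis was possible because each condition has 1 library. The ratio of OIR to RA in microglia ranged from -0.86 to -0.64 for Tgfbr1, -0.74 to -0.48 for Skil, -0.65 to -0.37 for Tgfbr2 and -0.12 to 0.04 for Tgfb1 over 15 alternatives. In macrophage-like cells it ranged from -1.03 to -0.83 for Skil and 0.24 to 0.58 for Tgfb1, and in monocyte-like cells from 0.52 to 0.79 for Tgfb1. In dividing cells Tgfb1 ranged from 0.10 to 1.71, and Tgfbr2 from -0.62 to 0.66, so their values there are not settled.

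The number of the 9 genes past 1.5-fold between OIR and RA moved from 2 in microglia to 1 with a Ptprc limit of 25%, with all anchor genes or without Malat1-poor cells, and to 4 without ribosomal protein and mitochondrial genes. In macrophage-like cells it moved from 3 to 5 after centring on the median of all genes and to 1 with a mean over cells. In monocyte-like cells it moved from 2 to 0 after centring, without ribosomal protein and mitochondrial genes or with a mean over cells, and to 1 with thinned cells or at least 50 UMIs. In dividing cells it moved from 1 to 2 with a Ptprc limit of 25%, a mitochondrial limit of 10%, no ribosomal protein or mitochondrial genes, or thinned cells, to 3 with no integration, centring, a mean over cells or without Malat1-poor cells, to 4 at the higher resolution, and to 0 at 50 UMIs.

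Relative to microglia, it moved in RA dividing cells from 7 to 4 with a Ptprc limit of 25% and to 2 without Malat1-poor cells. In OIR it moved from 4 to 2 in macrophage-like cells with a mean over cells, from 4 to 7 in monocyte-like cells with a Ptprc limit of 25%, and from 2 to 6 and 5 in dividing cells with a mean over cells and thinned cells. For Malat1-poor against other OIR microglia it moved from 8 to 5 with a Ptprc limit of 25%. With a limit of 2-fold, 0 genes were past it between conditions in microglia, macrophage-like and monocyte-like cells, and relative to microglia 1, 3 and 2 were in RA macrophage-like, monocyte-like and dividing cells and 2, 1 and 1 in OIR. The cause was not tested for any of these. The counts in this section are given without the share of all genes under the same setting. They describe only how the counts moved.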
